A study of Mus musculus with 13 samples.

Results

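The lysosomal hydrolases and membrane proteins were described here as a set of 42 genes, chosen by symbol from a list of enzymes, membrane proteins and proton pump subunits of the lysosome. All 42 symbols are among the 11779 genes of the deposited liver table. The liver samples are from Balb/c mice. Of these, 3 received a mix of GalNAc-conjugated antisense oligonucleotides (ASOs) against the long noncoding RNA LL35. The paper's text gives 5 conjugates in this mix, while its supplementary list of ASOs used in vivo names 4 against LL35. Another 3 mice received the GalNAc-conjugated control ASO against luciferase (Luc ASO), which has no target in the mouse. GalNAc is a sugar that hepatocytes take up, so the conjugates reach the liver. The age and sex of the mice are not given in the sources used here. Livers were collected on day 5 after an injection of 150 mg/kg, a dose that the labels give for each ASO and the methods for the mix as a whole. The series also holds 7 libraries of AML12, a mouse hepatocyte line, of which 3 received Luc ASO and 4 received LL35 ASOs. These libraries were not analysed here.

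The table holds 1 mean normalised read count per gene, the authors' mean over the compared liver libraries, in which Luc ASO and LL35 ASO livers are mixed. It gives no value per mouse. The values below are therefore levels in liver over both treatments, with no spread between mice, and a difference in level between neighbouring genes could not be tested. The depth of each library is unknown from this table, so no interval is given. The table's remaining numeric columns hold the authors' own comparison of LL35 ASO with Luc ASO. They were not used, and the response of these genes to LL35 knockdown was not analysed here. In bulk liver, fewer cells of a type and less RNA per cell cannot be told apart.

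The lysosome is the acidic compartment in which cells break down proteins, sugars, lipids and nucleic acids taken up from outside or delivered by autophagy. Its soluble hydrolases work at low pH, which a vacuolar-type proton pump in the membrane maintains, and heavily glycosylated membrane proteins line its inner face. Many of these genes are targets of the transcription factor TFEB, which binds a palindromic E-box near their starts. In the liver, both hepatocytes and Kupffer cells, the resident macrophages, are rich in lysosomes.

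Most of the 42 genes stood above the median listed gene in liver. The set was led by a saposin precursor, with membrane glycoproteins and cathepsins also among its highest genes. To compare genes of different length, the mean normalised count was divided by the gene's exon length in kilobases (kb), with all annotated exons merged. On this scale the median of the 42 genes was 123 normalised counts per kb, against 51.5 over all listed genes with a known length. Of the 42 genes, 30 were above the median of all listed genes, and the median member stood at the 74.0th percentile. Above the 90th percentile of listed genes lay 13 members, and 6 of these were above the 95th. Together the 42 genes held 0.556% of the summed mean normalised counts of the table. The levels spanned 142-fold, from 20.9 normalised counts per kb for Gla to 2965 for Psap.

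**Figure D1:**
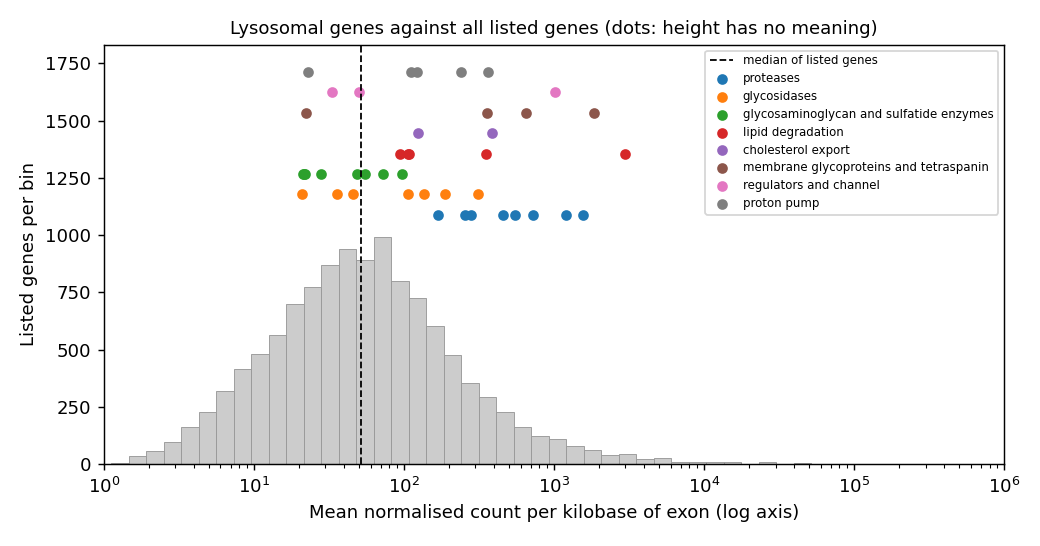
Histogram of all listed genes by mean normalised count per kb of exon (log axis), with the 42 lysosomal genes as dots coloured by role above it and the median of 51.5 as a dashed line. The heights of the dots carry no value. The 8 proteases all lie to the right of the median, while the glycosaminoglycan and sulfatide enzymes lie on both sides of it.

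The promoters of these genes were read from RefSeq windows of 300 bases, which hold 250 bases before and 50 bases after each annotated start in GRCm38.p6. Of the 42 genes, 36 had such a window. Ctsb, Ctsh, Galns, Npc1, Asah1 and Atp6v1b2 had no entry. The palindrome CACGTG, which reads the same on both strands and is 1 form of the E-box, was present in 13 of these 36 genes (36.1%). Over all listed genes with a window it was present in 1104 of 9335 (11.8%). Counted by window, it was present in 13 of the 42 windows of the members (31.0%) and in 7.15% of all 32851 windows. The longer palindrome TCACGTGA, which contains CACGTG, was present in 6 of the 36 genes (16.7%) and in 2.20% of the listed genes. By window the shares were 14.3% in the members and 0.974% over all windows. A match gives the letters of the window and does not tell which factor binds there. No binding by TFEB or another protein was measured in these data.

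The 6 genes with the longer palindrome are shown in stretches of 30 bases, since a larger share of members than of listed genes held it. The lines below run from 5′ to 3′ on the strand of the gene, with the palindrome in capitals.
Ctsa, first site (chr2:164833749-164833778, plus strand): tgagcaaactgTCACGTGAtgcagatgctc
Ctsa, second site (chr2:164833766-164833795, plus strand): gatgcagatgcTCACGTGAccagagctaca
Ctsd (chr7:142387908-142387937, minus strand): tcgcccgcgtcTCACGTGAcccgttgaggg
Gla, distal site (chrX:134601215-134601244, minus strand): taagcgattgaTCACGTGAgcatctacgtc
Gla, proximal site (chrX:134601182-134601211, minus strand): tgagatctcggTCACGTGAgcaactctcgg
Mcoln1 (chr8:3500462-3500491, plus strand): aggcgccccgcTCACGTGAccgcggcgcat
Atp6v0d1 (chr8:105566050-105566079, minus strand): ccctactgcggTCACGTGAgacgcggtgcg
Atp6v1a (chr16:44139373-44139402, minus strand): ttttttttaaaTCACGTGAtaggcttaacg
These genes encode a carboxypeptidase, an aspartic protease, a glycosidase, a cation channel and 2 proton pump subunits, so the longer palindrome was found in several role groups. Lamp1 held the shorter palindrome 4 times, more than any other of the 13 genes, within 60 bases just upstream of its start, shown with each CACGTG in capitals.
Lamp1 (chr8:13159096-13159155, plus strand): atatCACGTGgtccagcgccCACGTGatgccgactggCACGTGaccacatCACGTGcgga

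The 13 genes held 20 copies of CACGTG in all, of which 13 lay within 100 bases upstream of the annotated start and 1, in Ctsa, began downstream of it. Copies further out were seen in Ctsd and Ctsl, at 245 and 236 bases upstream, in Gla at 227 and 194 bases, and in Gaa and Atp6v1a at 140 and 131 bases. A single copy was held by 8 of the 13 genes. The windows of the 36 genes had a median of 13 CpG dinucleotides and a median GC content of 57.0%, against 20 and 60.7% over the listed genes. Among genes with at least 10 CpG dinucleotides in the window, CACGTG was present in 11 of 28 members (39.3%) and in 13.0% of listed genes. The same search in a further list of lysosomal genes, described below, found CACGTG in 14 of 48 genes (29.2%) and TCACGTGA in 14.6%.

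**Figure D2:**
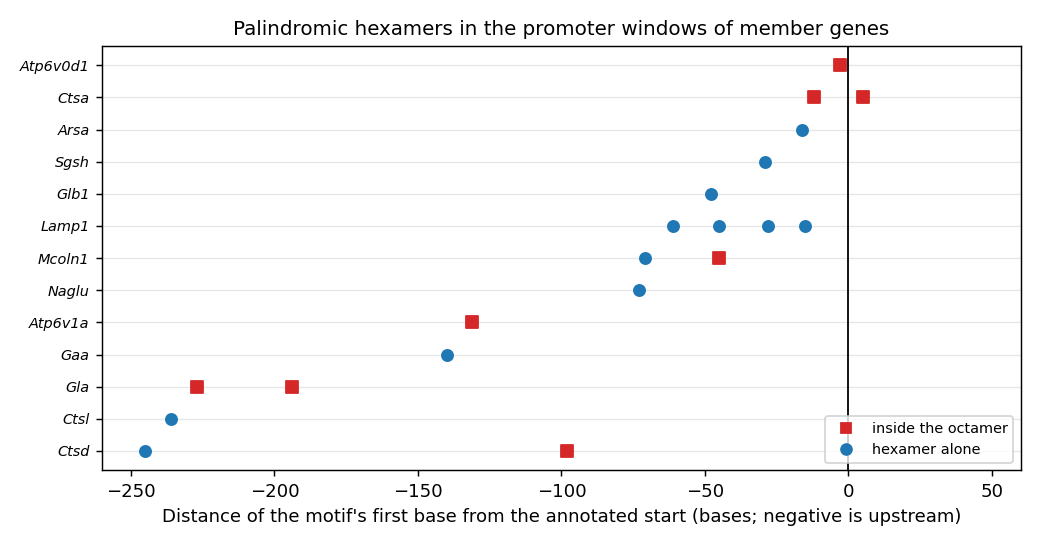
Distance from the annotated start, in bases, to the first base of each CACGTG in the RefSeq windows of the 13 members that hold one, with negative values upstream. Squares mark copies inside TCACGTGA and circles mark the others. Of the 20 copies, 13 lie within 100 bases upstream of the start, and the 4 copies of Lamp1 lie between 61 and 15 bases upstream.

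Members with and without the palindrome had close median levels in liver. The median was 123 normalised counts per kb in the 13 genes with CACGTG, over a range of 20.9 to 1837, and 124 in the 23 genes without it, over a range of 21.4 to 2965. Both the lowest member, Gla, and the second highest, Lamp1, held the palindrome. Psap, the highest, did not.

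Proteases were the role group with the largest share of the set's level. All 8 were above the median of listed genes, with a median of 507 normalised counts per kb, and together they made up 33.8% of the set's summed level. Ctsz, which encodes the carboxypeptidase cathepsin Z, was the highest, at 1555 normalised counts per kb. The cysteine protease genes Ctsb, Ctsl and Ctsh stood at 1196, 553 and 461 normalised counts per kb. Ctsd, the main aspartic protease of the lysosome, stood at 726. These 5 cathepsins were all among the 10 highest members, and 4 of them, without Ctsl, were with the longest protein-coding transcript. Ctsc, a dipeptidyl peptidase that activates granule serine proteases of immune cells, was the lowest protease, at 170 normalised counts per kb, still at the 80.8th percentile of the listed genes.

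Glycosidases, which remove sugars from glycolipids, glycogen and glycoproteins, were at lower levels. Their median was 107 normalised counts per kb, and 4 of the 7 were above the median of listed genes. Gaa, the acid alpha-glucosidase that degrades glycogen, was the highest, at 311 normalised counts per kb. Gla, the alpha-galactosidase A that cleaves globotriaosylceramide, was the lowest, at 20.9, at percentile 25.3. In a known complex of the lysosome, cathepsin A, encoded by Ctsa, protects the sialidase Neu1 and the beta-galactosidase Glb1. Their genes stood at 279, 107 and 36.0 normalised counts per kb, so the RNA level of Ctsa was 2.61 times that of Neu1 and 7.77 times that of Glb1.

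The enzymes that degrade glycosaminoglycans and sulfatide had the lowest median of the 8 role groups. Their median was 38.4 normalised counts per kb, the 40.5th percentile, and 3 of the 8 were above the median of listed genes. The highest was Naglu, which removes N-acetylglucosamine from heparan sulfate, at 97.3 normalised counts per kb. With the longest transcript, the longest protein-coding transcript or no division by length, Gusb, the beta-glucuronidase, was higher than Naglu, at 122 against 101 normalised counts per kb for both transcript lengths. The lowest were Idua, the alpha-L-iduronidase, at 21.4, Galns, a sulfatase of keratan sulfate, at 21.5, and Arsb, a sulfatase of dermatan sulfate, at 22.0. With the longest protein-coding transcript the lowest was Galns, at 22.3. Ids, the iduronate sulfatase, and Arsa, the sulfatase of sulfatide, were with Mcoln1 the 3 members nearest to the median of listed genes, at 55.0 and 48.7 normalised counts per kb. The 8 genes made up 2.38% of the set's summed level, less than Ctsd alone.

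The lipid group was led by 1 gene. Psap encodes prosaposin, the precursor of the saposins, small proteins that present sphingolipids to their hydrolases, and its 2965 normalised counts per kb placed it at the 98.8th percentile. The other 4 genes of the group lay between 94.6 for Ppt1, a thioesterase that removes palmitate from proteins, and 353 for Lipa, the acid lipase of cholesteryl esters and triglycerides. Psap was 27.3 times the level of Smpd1, the acid sphingomyelinase, and 27.7 times that of Asah1, the acid ceramidase, whose activity saposin D assists. With the longest transcript or the longest protein-coding transcript, these ratios were 20.4 and 23.4. With all merged exons, Psap was 60.9 times the level of Arsa and 142 times that of Gla, which saposin B assists. Of the pair that moves cholesterol out of the lysosome, the membrane protein gene Npc1 stood at 389 normalised counts per kb and the gene of the soluble carrier Npc2 at 124.

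Membrane protein genes were high with 1 exception. Lamp1 and Lamp2, which encode the most abundant glycoproteins of the lysosomal membrane, stood at 1837 and 656 normalised counts per kb. Scarb2, the receptor that carries beta-glucocerebrosidase to the lysosome, stood at 357. Cd63, a tetraspanin of late endosomes and exosomes, was the lowest of the group at 22.3, below the median of listed genes. Grn, which encodes progranulin, was among the 10 highest members at 1013 normalised counts per kb. Mcoln1, the lysosomal cation channel, stood near the median of listed genes at 50.1, and Tfeb, the transcription factor, below it at 33.1. With the longest protein-coding transcript as the length, both were above the median of listed genes, Mcoln1 at percentile 74.7 and Tfeb at 50.9.

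Proton pump subunit genes differed by 15.9-fold among themselves, or by 6.12-fold with the longest protein-coding transcript as the length. Atp6v0d1, a subunit of the membrane sector, was the highest at 363 normalised counts per kb, and Atp6v0c, the subunit of the proton-carrying ring, was the lowest at 22.8, with part of its sequence also present in pseudogenes, as given below. Atp6v1a and Atp6v1b2, the A and B subunits that alternate in the catalytic head, were close to each other at 123 and 112 normalised counts per kb. The accessory subunit gene Atp6ap1 stood at 242.

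**Figure D3:**
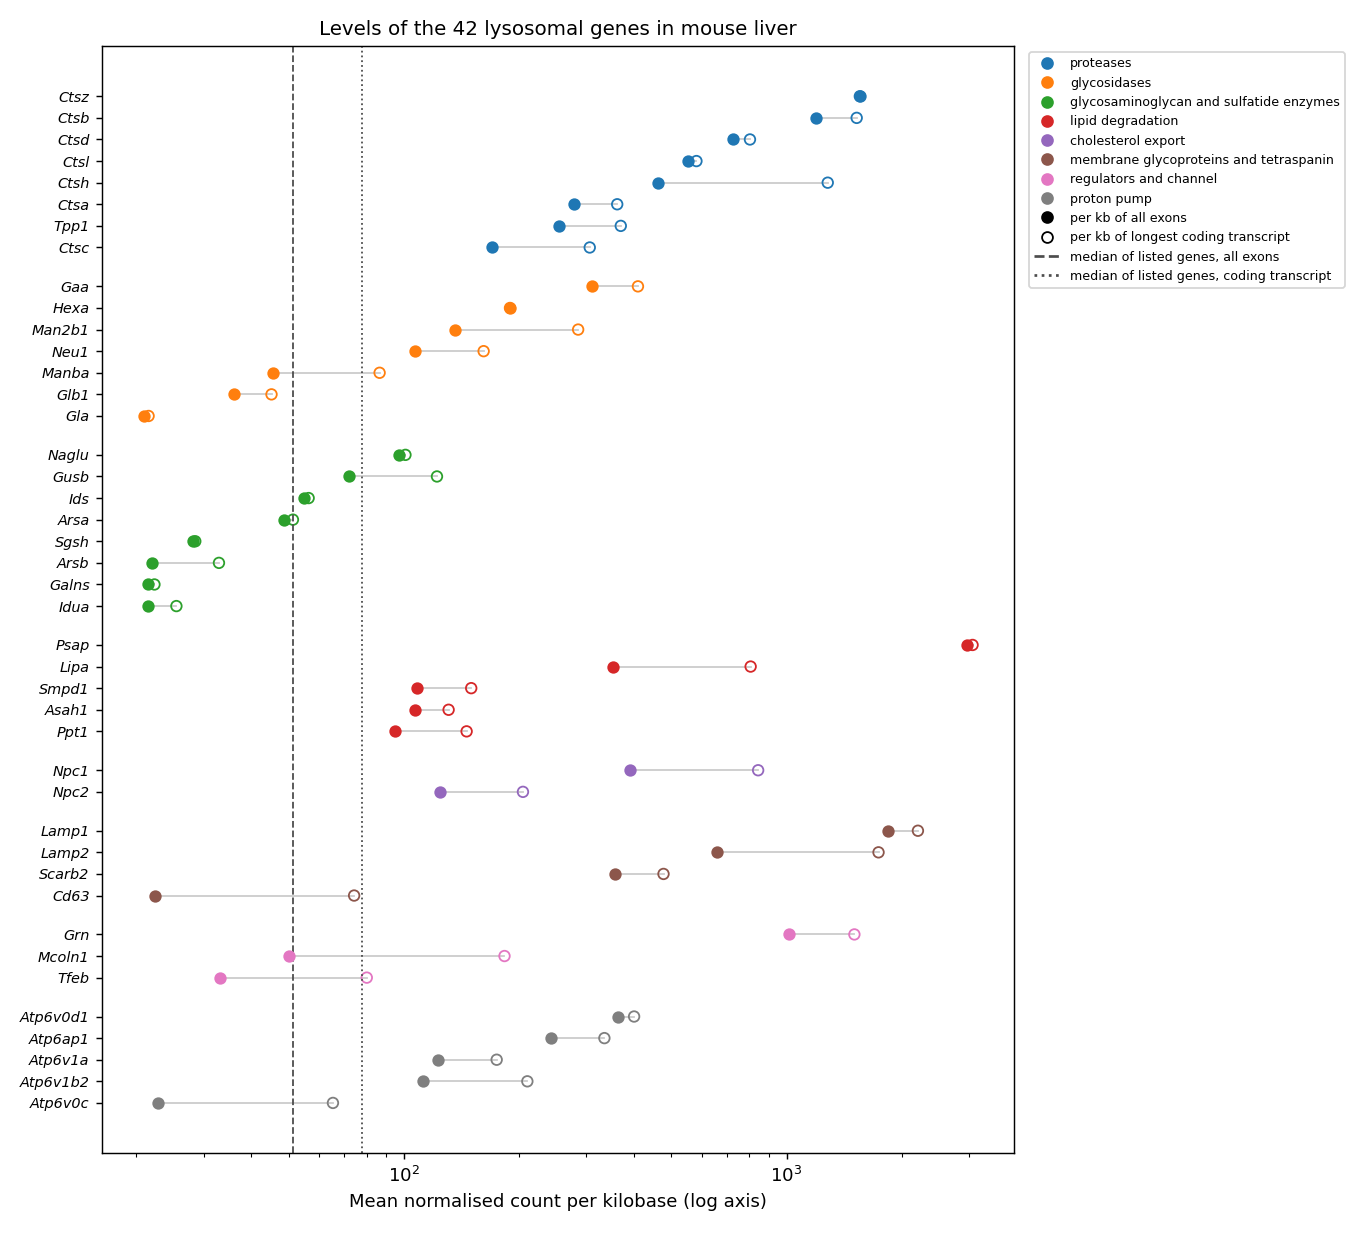
Mean normalised count per kb (log axis) of each of the 42 genes, grouped and coloured by role. Filled dots use the length of all merged exons and open dots that of the longest protein-coding transcript, with the median of listed genes on each scale as a dashed line (51.5) and a dotted line (77.8). Psap is the highest and Gla the lowest on both scales, and the open dots of Mcoln1, Cd63 and Atp6v0c lie far to the right of the filled ones.

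The levels depended on which exons count as the gene. In 16 of the 42 members, the longest protein-coding transcript gave more than 1.5 times the level per kb of all merged exons. The median of listed genes also rose, from 51.5 to 77.8, and the share of listed genes above 1.5 times was not counted. The order of the members changed little, with a rank correlation of 0.976 between these lengths. The percentile changed by more than 1.5 times in 3 members. With the longest protein-coding transcript as the length, the value of Cd63 went from 22.3 to 74.2 normalised counts per kb, that of Atp6v0c from 22.8 to 65.3 and that of Mcoln1 from 50.1 to 183. Mcoln1 then stood at percentile 74.7 instead of 49.1, while Cd63 and Atp6v0c stayed below the median. Lamp2, Ctsh, Npc1 and Lipa came to 1739, 1281, 843 and 806 normalised counts per kb. With all merged exons Lamp2 was below Ctsz and Ctsb, but with the longest protein-coding transcript it was above them, at 1555 and 1525. Psap was at 3063 and Gla at 21.5, so the range of the set was 142-fold on this scale as well.

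Some members share sequence with other genes. For each member, the stretches of 50 bases in its longest protein-coding transcript were looked up in the transcripts of all other genes on either strand. For 25 members none was found elsewhere, and for 10 members at least 10% were. The largest share was that of Arsb, at 57.8%. In Cd63 and Atp6v0c, 36.5% and 32.5% of the stretches were also present in annotated pseudogene copies of the same genes. In Ctsd and Ctsl the shares were 36.6% and 28.1%. Lower shares were found in Sgsh (20.0%), Arsa (17.3%), Ctsa (15.8%), Ctsb (15.4%) and Hexa (10.6%). The genes sharing stretches included Fdft1 for Ctsb and Pltp for Ctsa. The methods name the gene counting mode of STAR, which leaves out reads that map to several places or overlap several genes. Whether strand was used in the counting is not given in the sources used here. The part of shared sequence in the levels of these genes was not tested, and their levels are uncertain.

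The further list held 63 other genes of the lysosome, and all of them were in the table. Of these, 45 were above the median of listed genes, with a median of 98.7 normalised counts per kb, compared with 30 of the 42 members and 123. All 11 further proton pump subunits were above the median of listed genes, from 53.2 for Atp6v1h to 268 for Atp6v1g1. With the longest protein-coding transcript all 11 were above it as well, from 94.1 for Atp6v1d to 792 for Atp6v1e1, and Atp6v1h stood at 253. Of 20 further hydrolases and cofactors, 14 were above the median of listed genes with all merged exons. The highest with all merged exons was Ctss, the cathepsin of antigen-presenting cells, at 404 normalised counts per kb. The lowest with all merged exons was Galc, the galactosylceramidase, at 9.65, and with the longest protein-coding transcript Ctsk, a cathepsin of osteoclasts, at 14.6. Among 15 further membrane proteins, Laptm4a was the highest at 861. Of 11 genes of nutrient signalling and transcription, 7 were above the median, and the TFEB relatives Tfe3 and Mitf stood at 42.9 and 16.8, against 33.1 for Tfeb. With the longest protein-coding transcript, 9 were above it. Tfe3 then stood at 117, percentile 62.4, and Mitf at 21.3, against 80.1 for Tfeb. With all merged exons, 4 of the 6 sorting genes were above the median, with M6pr, a mannose 6-phosphate receptor that brings hydrolases to the lysosome, at 212.

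Markers of the cell types in liver gave the setting of these levels. All 10 hepatocyte markers were in the table, from 2550 normalised counts per kb for Hnf4a to 519843 for Alb. All 8 Kupffer cell and macrophage markers were in it as well, from 55.4 for Timd4 to 791 for Clec4f, and so were the 5 markers of sinusoidal endothelium and the 5 of stellate cells, with medians of 126 and 36.8. Of 5 cholangiocyte markers, Sox9 and Spp1 were listed, and of 5 markers of T, B and NK cells, Cd3e alone was, at 4.56 normalised counts per kb. The levels of Psap, Lamp1, Ctsz, Ctsb and Grn were above that of each Kupffer cell marker and, except for Psap, below that of each hepatocyte marker. The part of each cell type in the members' levels was not tested.

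**Figure D4:**
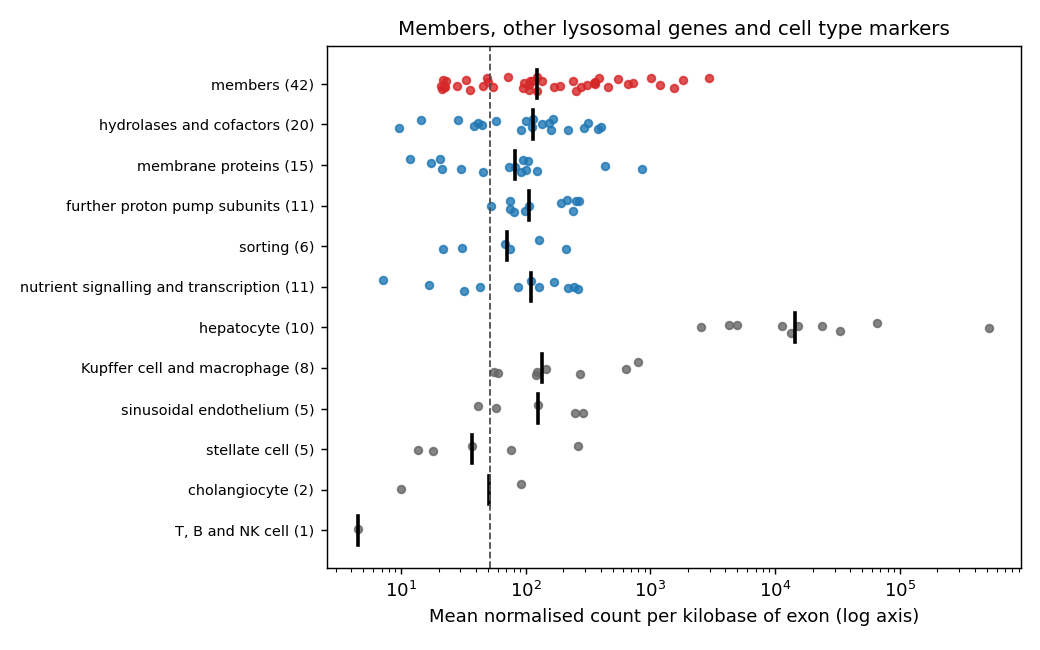
Mean normalised count per kb of exon (log axis) of the 42 members (red), the 5 lists of other lysosomal genes (blue) and the cell type markers (grey), with the number of listed genes in parentheses, each list's median as a black bar and the median of all listed genes as a dashed line. The hepatocyte markers lie furthest to the right. On this scale the members' median is 123, against 126 for the sinusoidal endothelium markers and 135 for the Kupffer cell and macrophage markers. The order of the members' and the Kupffer cell and macrophage medians depends on the length used. Cd68 is drawn both as a lysosomal membrane protein and as a macrophage marker.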

How the data were processed

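RNA-seq libraries were made from total RNA of 6 livers after ribosomal RNA depletion, with a directional kit. Per the labels and methods, the authors aligned reads with STAR 2.5.3a, counted them on Ensembl genes in its gene counting mode, and normalised them with DESeq2. The genome build is not given in the sources used here. The deposited value used is a signal: the authors' mean of size-factor-normalised counts per gene. The table's other numeric columns hold the authors' own comparison (log2 fold change, its standard error, Wald statistic, p-value and adjusted p-value) and were not used. No value per mouse was used, so no test was run.

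Levels were divided by the merged exon length of GENCODE release M21, found for 11754 of 11779 genes by Ensembl identifier. Percentiles are the share of listed genes with a lower level, and the steps were tested on simulated data. In 36 of the 42 member promoter windows, the first 25 bases after the start lay in a GENCODE transcript of the gene, and in 0 on the opposite strand. Python 3.11.15, pandas 2.3.3, numpy 2.4.6 and matplotlib 3.10.9 were used.

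The members and lists were chosen with earlier results of these data known. Genes were named by a rule: the highest and lowest of each role group, the 10 highest, the 5 lowest and the 3 nearest the median of listed genes. Genes of the cathepsin A complex, the saposin partners and other genes named outside it were chosen after their values were seen.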

Additional observations from a re-analysis of the deposited data

How the results depend on the processing

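No paired analysis was possible because the table holds no value per mouse, and for the same reason no replicate could be left out. With no spread between replicates, a value counted as moved where it changed by more than 1.5 times. The number of members above the median of listed genes lay between 29 and 32 over 5 alternatives (longest transcript, longest protein-coding transcript, no division by length, a mean normalised count of at least 50, and protein-coding genes only), and their median percentile between 69.4 and 77.8. The 63 other lysosomal genes gave 39 to 47 above the median. Searching TCACGTGA in place of CACGTG left 6 members, and the first 250 bases alone gave 12. With the longest transcript as the length, the group medians that moved were those of cholesterol export (485 normalised counts per kb), membrane proteins (1108), regulators and channel (131) and proton pump (210). The longest protein-coding transcript was an alternative chosen after seeing the data. With it, the medians that moved were those of glycosidases (162), cholesterol export (524), membrane proteins (1108), regulators and channel (183) and proton pump (210). The median of listed genes rose too, from 51.5 to 71.1 with the longest transcript and to 77.8 with the longest protein-coding one. From all merged exons to the latter, median percentiles went from 70.8 to 71.5 for glycosidases and from 82.7 to 85.6 for cholesterol export. They went from 92.6 to 93.6 for membrane proteins, 73.9 to 77.8 for proton pump and 49.1 to 74.7 for regulators and channel. Leaving out the highest gene of a group moved the median of cholesterol export to 124, since 1 gene was left. Without division by length, the share of cholesterol export became 8.09%. Ids fell below the median and Mcoln1, Manba and Tfeb rose above it with the longest protein-coding transcript, and 9 of the 10 highest members were shared with the main scale.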
